A study of Mus musculus with 15 samples.

Results

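The enzymes that build cholesterol from acetyl-CoA, and the transcription factor that drives their genes, were followed in RNA-seq of 15 mouse colons. They were listed as 8 genes by symbol, namely Hmgcs1, Idi1, Fdps, Fdft1, Sqle, Lss, Cyp51 and Srebf2. Of these 8, 7 have a row in all 3 count tables, among the 12370 genes that all 3 tables share. Hmgcs1, the cytosolic HMG-CoA synthase, has no row in the tables used here and is not analysed. Genes of cholesterol uptake and transport are no members and are given below with the rest of the pathway.

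The study asked how loss of Irf1, a transcription factor of the interferon response, alters the colon before and after colitis-associated injury. All mice were C57BL/6 (B6), either wild type or Irf1-/- mutants on that background, and whole distal colon was profiled, with 3 mice in each of 5 groups. There were 2 sets of untreated wild-type mice, kept apart here as control set 1 and control set 2, and 1 group of untreated Irf1-/- mutants. The wild-type and Irf1-/- treated groups had been injected with the carcinogen AOM (azoxymethane) on D1 (7 mg/kg), had drunk water with 2% DSS (dextran sodium sulfate), a polymer harmful to the colon lining, from D8 to D11, and were taken at D26. The labels give neither age nor sex. The Irf1-/- allele is carried by every cell of the mutants, so a difference between genotypes is not tied to any cell type of the colon.

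Cholesterol is made in a long chain of reactions. The mevalonate part yields isoprenoid units, which are joined to squalene, and squalene is oxidized, closed to lanosterol and trimmed to cholesterol. When sterols in the endoplasmic reticulum run low, the SREBP-2 protein encoded by Srebf2 is carried to the Golgi by Scap, cut there by the site-1 and site-2 proteases (Mbtps1, Mbtps2), and its released part enters the nucleus and switches on the genes of the chain. Insig proteins hold the complex back when sterols are plentiful, and dividing cells need sterols for new membrane. Control of SREBP-2 by cleavage is not visible in RNA counts.

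SREBP-2 acts at promoters with help from the factors NF-Y and Sp1. The promoters of 3 of the enzymes, which moved together among mice, and of Srebf2, which did so less, are therefore shown (RefSeq, build GRCm38.p6, the 250 bases before the annotated start, 5′ to 3′ on the gene's strand). Capitals mark matches on either strand to CCAAT (the NF-Y box) and GGGCGG (the Sp1 box), and to TCACNCCAC, a form of the sterol regulatory element. The windows are at chr13:8885356-8885605 (plus strand) for Idi1, chr10:76531355-76531604 (plus) for Lss, chr5:4104698-4104947 (minus) for Cyp51 and chr15:82147019-82147268 (plus) for Srebf2.
Idi1: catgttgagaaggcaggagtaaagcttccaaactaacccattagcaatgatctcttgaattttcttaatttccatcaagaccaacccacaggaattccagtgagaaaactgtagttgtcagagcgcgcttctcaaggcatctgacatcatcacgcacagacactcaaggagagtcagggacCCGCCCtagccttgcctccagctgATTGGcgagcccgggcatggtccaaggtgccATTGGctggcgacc
Lss: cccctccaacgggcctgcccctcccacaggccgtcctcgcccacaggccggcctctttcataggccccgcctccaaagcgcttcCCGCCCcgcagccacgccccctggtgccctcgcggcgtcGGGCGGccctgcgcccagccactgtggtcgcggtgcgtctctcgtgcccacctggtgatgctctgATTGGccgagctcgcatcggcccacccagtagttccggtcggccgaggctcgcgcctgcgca
Cyp51: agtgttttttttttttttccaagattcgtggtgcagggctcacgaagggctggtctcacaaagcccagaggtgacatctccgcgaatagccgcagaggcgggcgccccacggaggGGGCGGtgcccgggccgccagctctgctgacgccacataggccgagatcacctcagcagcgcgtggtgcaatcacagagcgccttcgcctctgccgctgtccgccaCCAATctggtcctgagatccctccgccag
Srebf2: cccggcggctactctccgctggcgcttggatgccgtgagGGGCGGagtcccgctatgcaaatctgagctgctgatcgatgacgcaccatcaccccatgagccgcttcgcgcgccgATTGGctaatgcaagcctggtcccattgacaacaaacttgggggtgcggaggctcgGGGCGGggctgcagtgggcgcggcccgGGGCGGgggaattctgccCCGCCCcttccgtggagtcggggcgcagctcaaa
Each of these 4 promoters held at least 1 CCAAT box and at least 1 GGGCGG box. Among all 32851 promoters of the same length, 33.9% held CCAAT and 32.7% held GGGCGG. Other forms of the sterol regulatory element were not searched for. The letters TCACNCCAC were in none of the 4 windows shown and in 1.05% of all promoters. The promoter of Hmgcs1, not shown since its RNA is not analysed, held 1 match to them, TCACCCCAC, at positions -137 to -129 from the start. None of these motifs overlapped another in the 4 windows. Sqle, Fdps and Fdft1 had no promoter in the table used.

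Counted reads per library ran from 22266607 to 22869853, so the members, at 22.6 CPM or more in every library, were limited by differences between mice and not by depth. Values are CPM (read counts relative to the library total) scaled by TMM over all 15 libraries unless a log2 fold change is named. Irf1 itself was lower in the Irf1-/- mice but not absent, at 79.4 to 117 CPM untreated and 99.97 to 123 CPM treated, against 128 to 161 CPM in the untreated and 173 to 227 CPM in the treated wild-type mice, and which part of the gene gives the remaining reads was not tested. The 3 treated B6 libraries stood apart in how counts followed GC content, with slopes of 0.14 to 0.29 log2 units per 10% GC against -0.12 to 0.03 in the other 12. Transcripts of the members ran from 41.9% GC (Idi1) to 57.9% GC (Srebf2), so GC-corrected values are given beside those contrasts with treated B6 mice that the correction moved most. Idi1 shares long near-identical stretches with the processed pseudogenes Gm13502 and Gm35570, and Fdft1 with the pseudogene Gm6781 and the neighbouring Ctsb, so their counts are less certain than those of the other 5.

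Idi1, isopentenyl-diphosphate isomerase, makes the second of the pair of isoprenoid building blocks. In CPM and in the order of mice 1 to 3, Idi1 was at 83.1, 55.2 and 98.8 in control set 1, at 85.5, 101 and 77.1 in control set 2, and at 101, 111 and 88.6 in untreated Irf1-/- mutants. At D26 the Idi1 values were 50.6, 84.7 and 54.2 in B6 mice and 116, 101 and 81.1 in Irf1-/- mutants. Only 1 treated B6 mouse reached the lowest treated mutant, and Idi1 had the lowest mean of its groups in treated B6 mice (63.2 ± 18.7, SD, n = 3) and the highest in untreated mutants (100.3 ± 11.2).

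Fdps, farnesyl diphosphate synthase, joins these units to the branch point that leads to sterols, ubiquinone and protein prenylation. Its CPM were 68.8, 52.0 and 75.5 in control set 1, 72.6, 97.6 and 71.4 in control set 2, and 97.1, 95.3 and 74.8 in untreated Irf1-/- mutants. Treated B6 mice were at 69.7, 119 and 98.6 and treated mutants at 115, 100.5 and 71.4. The treated groups of both genotypes thus had equal means for Fdps (95.8 ± 24.8 and 95.8 ± 22.4) and covered nearly the same range, and control set 1 had the lowest mean (65.4 ± 12.1).

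Fdft1, squalene synthase, commits farnesyl diphosphate to sterols. Its CPM were 93.1, 67.5 and 82.3 in control set 1, 69.8, 76.6 and 83.7 in control set 2, and 83.9, 102 and 84.9 in untreated mutants. They were 80.7, 138 and 106 in treated B6 mice and 130.1, 105 and 100.1 in treated mutants. The lowest treated mutant (100.1) was above the highest of the 6 untreated B6 mice (93.1), whereas the lowest treated B6 mouse was below 3 of the 6. How many of all genes had such a gap was not counted.

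Sqle, squalene epoxidase, carries out the first oxygenation and is one of the slow steps of the chain. Its CPM were 97.1, 75.7 and 102 in control set 1, 94.0, 107 and 95.4 in control set 2, and 107, 115 and 98.8 in untreated mutants. In treated B6 mice they were 66.5, 140.0 and 104, the lowest and the highest of all 15 libraries, and in treated mutants 126.5, 96.6 and 114. The 5 groups overlapped throughout, and their means differed by at most 1.23-fold.

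Lss, lanosterol synthase, closes squalene epoxide into the first sterol. Its CPM were 32.6, 22.6 and 30.6 in control set 1, 28.9, 35.0 and 29.3 in control set 2, and 38.4, 41.6 and 36.1 in untreated mutants. Treated B6 mice were at 28.7, 48.9 and 32.9 and treated mutants at 53.1, 43.2 and 39.2. The lowest of the 6 Irf1-/- mice, treated or not, was at 36.1 CPM and the highest of the 6 untreated B6 mice at 35.0. The share of all genes with such a gap between these joined groups was not counted. Of the treated B6 mice, 1 reached the range of the mutants.

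Cyp51, the cytochrome P450 that demethylates lanosterol, was at 117, 88.7 and 122 CPM in control set 1, 115, 148 and 124 in control set 2, and 156, 155 and 124 in untreated mutants. Treated B6 mice were at 80.8, 151 and 109 and treated mutants at 179, 145 and 127. Cyp51 overlapped between all neighbouring groups, with its highest mean in treated mutants (150.2 ± 26.1) and its lowest in control set 1 (109 ± 18.03).

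Srebf2, the gene of the regulator SREBP-2, was the steadiest member. It was at 134, 124 and 127 CPM in control set 1, 137, 132 and 134 in control set 2, and 143, 132 and 132 in untreated mutants. In the treated mice Srebf2 spread more widely, at 119.5, 150.0 and 167 in B6 mice and 133, 119 and 162 in mutants. Its highest and lowest libraries differed by 1.40-fold, against 2.04-fold (Fdft1) to 2.35-fold (Lss) for the 6 enzymes.

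For each of the 7 genes, every pair of neighbouring groups in the order of means overlapped in range. The highest group mean exceeded the lowest by 1.13-fold for Srebf2 and 1.59-fold for Idi1, the extremes of the 7. The order itself was not shared. Treated Irf1-/- mutants had the highest mean for 4 genes (Fdft1, Sqle, Lss and Cyp51), treated B6 mice for Fdps and Srebf2, and untreated mutants for Idi1. Control set 1 had the lowest mean for 5 genes, the exceptions being Idi1 and Fdft1.

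**Figure D1:**
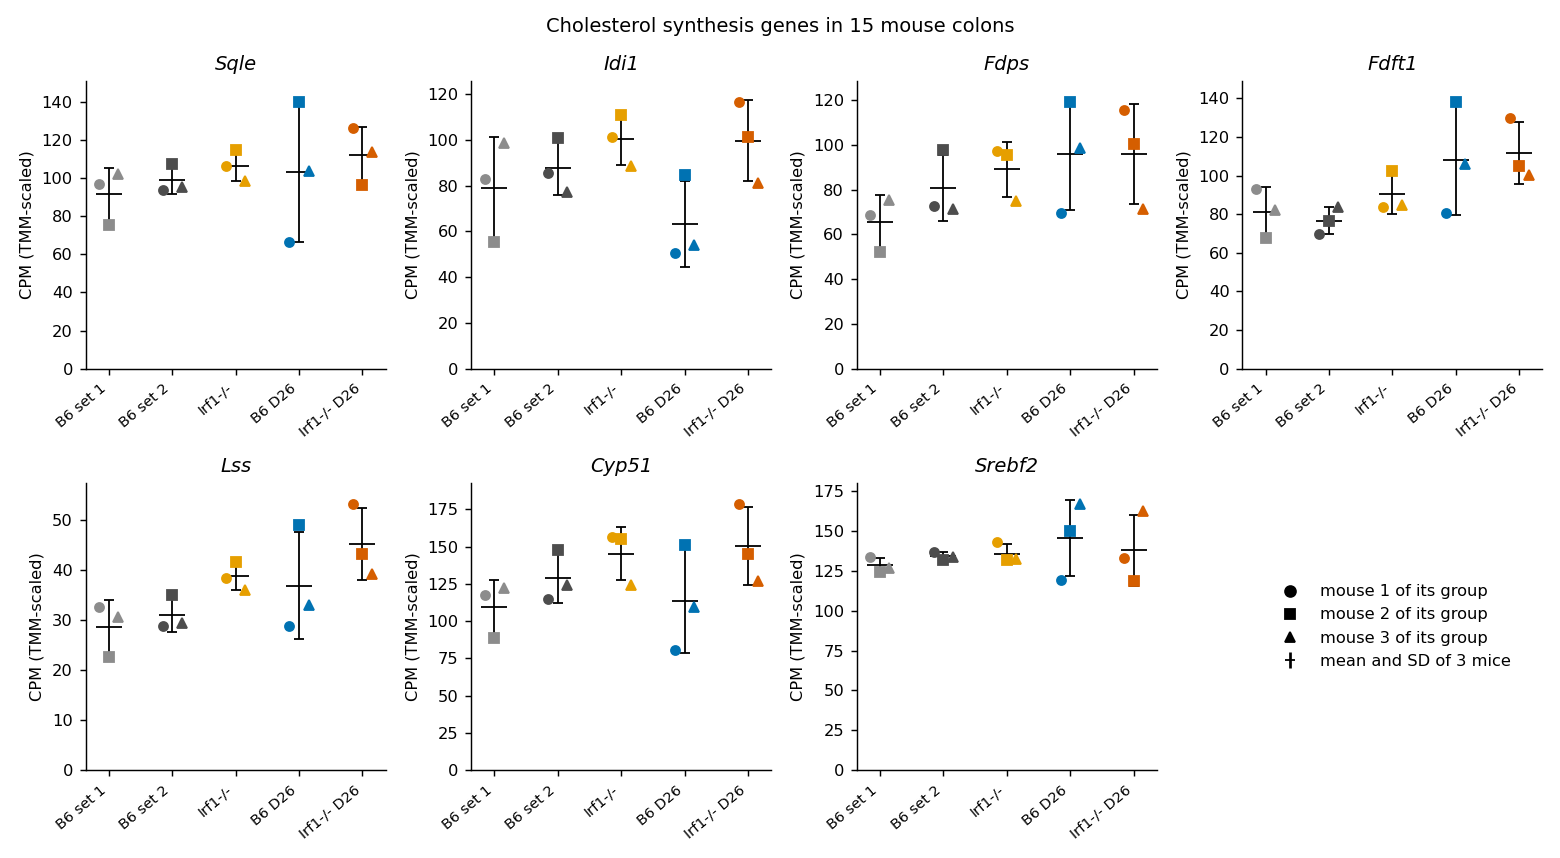
CPM of the 7 genes (y axes from 0, TMM-scaled over 15 libraries) in the 5 groups (x axes, D26 marks the treated groups), with 1 symbol per mouse and the mean and SD of 3 mice. Mouse 1 (circle) and mouse 2 (square) of the treated B6 group are the lowest and the highest of that group in all 6 enzymes, and groups next to each other in the order of means overlap.

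Comparisons used edgeR's quasi-likelihood test over all genes of a table, or over the genes shared by both tables where the groups came from different ones. A gene was called when its fold change was 1.5 or more and its adjusted p (Benjamini-Hochberg) was under 0.01, and a looser threshold was an adjusted p under 0.05 with no limit on the fold. None of the 7 genes passed either threshold in any of the 6 comparisons. Several of the intervals reach past 1.5-fold, so changes of that size are not excluded by these numbers of mice. DESeq2, edgeR's exact test and limma voom also called 0 of the 7 in each comparison they were run for.

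Without treatment, untreated Irf1-/- mutants were compared with control set 2. All 7 genes had positive log2 fold changes, from 0.02 for Srebf2 to 0.32 for Lss with a median of 0.17, where the median of all 12588 genes was 0.0019 and 50.8% were above 0. The 7 are not independent, since the enzymes varied together among mice as described below. For Lss the log2 fold change was 0.32 ± 0.092 (SE, 95% interval 0.11 to 0.52, adjusted p = 0.202) and for Fdft1 it was 0.24 ± 0.094 (0.03 to 0.45, adjusted p = 0.411). The other log2 fold changes were 0.19 for Idi1, 0.17 for Cyp51, 0.15 for Fdps and 0.11 for Sqle. Of the 7, 0 were called where 0.405% of all genes were, and 0 passed the looser threshold where 1.25% did. In this comparison 2 had an unadjusted p under 0.05 where 10.4% of all genes did, and the same 2, Lss and Fdft1, had groups that did not overlap with the mutants higher, as did 7.86% of all genes. With control set 1 in place of set 2, the log2 fold change was 0.44 for Fdps (adjusted p = 0.0912), 0.43 for Lss (0.0743), 0.41 for Cyp51 (0.0887), 0.34 for Idi1, 0.22 for Sqle, 0.15 for Fdft1 and 0.08 for Srebf2. With 1 mouse left out in turn, Lss ranged from 0.26 to 0.41, Fdft1 from 0.13 (without untreated mutant 2) to 0.30, Cyp51 from 0.10 to 0.28 and Fdps from 0.06 (without mouse 3 of control set 2) to 0.31 (without mouse 2 of that set).

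The response to AOM/DSS in B6 mice was taken against control set 1, with which the treated mice were tabulated. Fdps had the largest log2 fold change, 0.56 ± 0.195 (SE, 95% interval 0.12 to 1.00, adjusted p = 0.100), followed by Fdft1 at 0.43 ± 0.186 (0.0050 to 0.85, adjusted p = 0.165) and Lss at 0.37 ± 0.204 (-0.09 to 0.83, adjusted p = 0.252). Srebf2 was at 0.19, Sqle at 0.18 and Cyp51 at 0.06, while Idi1 was negative at -0.32 ± 0.237 (-0.85 to 0.22, adjusted p = 0.398). None of the 7 was called, against 0.0475% of all genes, and none passed the looser threshold, against 8.46%. In this comparison 2 of the 7 had an unadjusted p under 0.05, a share close to the 29.5% of all genes, and no member had groups that did not overlap, against 34.5%. The median over the 7 was 0.19, and over all genes 0.012.

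These values depended on single mice and on the control set. Without treated B6 mouse 1, the lowest of its group in all 6 enzymes, Fdps was at 0.74 with an adjusted p of 0.0217 and Fdft1 at 0.60 with an adjusted p of 0.0387 in edgeR's quasi-likelihood test. Without treated B6 mouse 2 they were at 0.37 (adjusted p = 0.205) and 0.22 (adjusted p = 0.377). The Wald test of DESeq2 gave Fdps an adjusted p of 0.0295 and edgeR's exact test gave 0.0450. With control set 2 in place of set 1, Fdps was at 0.26 (adjusted p = 0.347) and Fdft1 at 0.51 (adjusted p = 0.0663), and with both sets together Fdft1 had an adjusted p of 0.0440. Idi1, the member with the lowest GC content, was at -0.10 (adjusted p = 0.843) after the GC correction, Srebf2, the member with the highest, at 0.0045 (adjusted p = 0.989) and Cyp51 at 0.14. Lss ranged from 0.12 (without treated B6 mouse 2) to 0.53 (without treated B6 mouse 1) and Idi1 from -0.58 to -0.11.

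In Irf1-/- mutants the response was taken against the untreated mutants, the same 3 libraries that served in the comparison of untreated genotypes. Fdft1 was at 0.31 ± 0.116 (SE, 95% interval 0.05 to 0.57, adjusted p = 0.197) and Lss at 0.23 ± 0.115 (-0.03 to 0.49, adjusted p = 0.336). The log2 fold changes of the other 5 lay between -0.0065 (Idi1) and 0.11 (Fdps). None of the 7 was called (0.252% of all genes were) and none passed the looser threshold (2.37%). Fdft1 was the 1 member with an unadjusted p under 0.05, which 18.6% of all genes had, and no member had groups that did not overlap, against 25.1%. Without treated mutant 1, Fdft1 was at 0.19 and Lss at 0.09. The intervals were narrower than in B6 mice, with standard errors of 0.104 (Sqle) to 0.168 (Fdps) among the enzymes where those in B6 mice were 0.186 (Fdft1) to 0.237 (Idi1).

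The difference between these responses, mutants minus B6, was fitted in 1 model over the 4 groups. Fdps had the largest difference, a log2 value of -0.45 ± 0.291 (SE, 95% interval -1.07 to 0.18, adjusted p = 0.461), and Idi1 the only positive one, 0.31 ± 0.308 (-0.35 to 0.98, adjusted p = 0.648). The other 5 lay between -0.15 (Srebf2) and -0.0073 (Cyp51). None of the 7 had an unadjusted p under 0.05, where 16.9% of all genes did. None was called, against 0.016% of all genes, or passed the looser threshold, against 0.0481%. With control set 2 as the B6 control, the difference for Fdps was -0.15 and that for Cyp51 was 0.23. With 1 mouse left out in turn, Fdps ranged from -0.63 to -0.26 and Idi1 from 0.11 to 0.58, and after the GC correction Idi1 was at 0.13, Srebf2 at -0.019, Cyp51 at -0.081 and Fdft1 at -0.060.

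Between the treated genotypes, Idi1 was 0.64 ± 0.200 log2 units higher in Irf1-/- mutants (SE, 95% interval 0.19 to 1.10, adjusted p = 0.117), the largest fold change of any member in any comparison. Cyp51 followed at 0.39 ± 0.211 (-0.09 to 0.87, adjusted p = 0.312) and Lss at 0.28 ± 0.193 (-0.16 to 0.72, adjusted p = 0.422), and the other 4 lay between -0.09 (Srebf2) and 0.10 (Sqle). Of the 7, 0 were called against 0.385% of all genes, 0 passed the looser threshold against 2.05%, and 1 had an unadjusted p under 0.05 against 22% of all genes. No member had groups that did not overlap, against 28.1% of all genes. The adjusted p of Idi1 was 0.0213 with DESeq2, 0.0360 with the exact test and 0.0498 with all 15 libraries in 1 fit. Idi1 was at 0.92 (adjusted p = 0.0233) without treated B6 mouse 2 and at 0.45 (adjusted p = 0.335) after the GC correction, which put Fdft1 at 0.10 and turned Srebf2 to 0.065. Without treated B6 mouse 1, Cyp51 was at 0.20 and Lss at 0.14, and without treated B6 mouse 2 they were at 0.65 (adjusted p = 0.0751) and 0.54 (adjusted p = 0.0762). This comparison shares its libraries with both responses.

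The 2 untreated B6 sets, which have the same labels, differed by as much as some of the contrasts above. Fdps was 0.30 ± 0.151 log2 units higher in set 2 (SE, 95% interval -0.03 to 0.64, adjusted p = 0.342) and Cyp51 0.24 ± 0.128 (-0.05 to 0.52, adjusted p = 0.379), and the other 5 lay between -0.08 (Fdft1) and 0.15 (Idi1). None of the 7 had an unadjusted p under 0.05, where 17.2% of all genes did. None was called (0.0644% of all genes were) or passed the looser threshold (0.572%), and no member had sets that did not overlap (21.4%). Without mouse 2 of set 2 Fdps was at 0.14, and without mouse 2 of set 1 Cyp51 was at 0.11. For Fdps this gap was about as large as the change in B6 mice when that is taken against set 2.

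**Figure D2:**
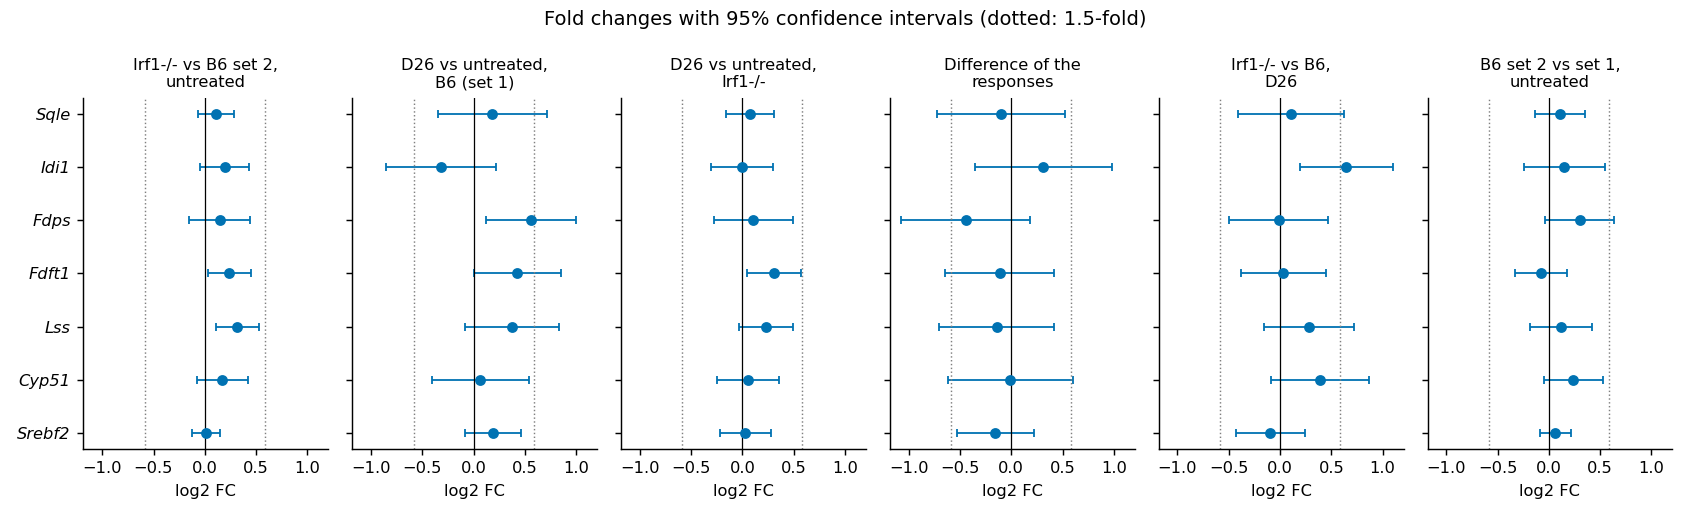
log2 fold change of each gene (points) with its 95% interval (bars) in the 6 comparisons, from edgeR's quasi-likelihood fits, with dotted lines at 1.5-fold in either direction. The intervals that leave out 0 are those of Fdft1 and Lss between untreated genotypes, Fdps and Fdft1 in the B6 response, Fdft1 in the Irf1-/- response, and Idi1 between treated genotypes, and none of these passed the test after adjustment.

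The enzymes also varied among mice of the same group. Their SD of log2 CPM within groups was 0.24 (Fdft1) to 0.31 (Idi1) where the median of 12370 genes was 0.13, and each enzyme varied more than 88.2% to 94.7% of all genes. Srebf2, with an SD of 0.16, varied more than 64.8% of them.

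The 6 enzymes varied together. After subtraction of each group's mean, Pearson's r between pairs of enzymes over the 15 libraries ran from 0.749 (Fdps with Fdft1) to 0.953 (Lss with Cyp51), with a median of 0.879 over the 15 pairs, and the median of Spearman's rho was 0.854. These points share their libraries, and the 3 deviations of a group sum to 0, so r is given as a description. The mean deviation of the enzymes was -0.41 log2 units in treated B6 mouse 1 and 0.43 in treated B6 mouse 2, and in each of these libraries all 6 enzymes lay on the same side. In untreated control set 1, mouse 2 was at -0.32 with all 6 below the group mean. The treated Irf1-/- mutants ran from -0.20 (mouse 3) to 0.24 (mouse 1), whose 6 enzymes were all above their group mean, and the untreated mutants from -0.15 to 0.13. Over the 15 libraries, 10 had all 6 enzymes on 1 side of the group mean.

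The covariation did not rest on the treated B6 mice alone. With the libraries of treated B6 mice 1 and 2 left out, as those farthest from the median, the median r between enzymes was 0.785 (0.598 to 0.950), and without all 3 treated B6 libraries it was 0.832. RLE in place of TMM factors gave 0.881.

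Srebf2 did not move with the enzymes to that degree. Its r with each enzyme ran from -0.01 (Idi1) to 0.56 (Sqle), with a median of 0.19. In treated B6 mouse 1 it was low with the enzymes (-0.27), but in treated Irf1-/- mouse 3 it was the highest of its group (0.25) while the enzymes averaged -0.20.

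Markers of dividing cells moved with the enzymes. The summed CPM of the 5 listed (Mki67, Top2a, Pcna, Mcm5 and Ccnb1, all measured) was 605, 361 and 467 in control set 1, 523, 681 and 668 in control set 2, and 618, 541 and 494 in untreated mutants. In treated mice it was 291, 648 and 477 in B6 and 681, 612 and 436 in Irf1-/- mutants. The lowest and the highest mouse of both treated groups and of control set 2 were the same as for the mean of the enzymes. In control set 1 and the untreated mutants only the lowest mouse was the same. The highest there was mouse 1 for the markers, but mouse 3 of control set 1 and untreated mutant 2 for the enzymes. The r of the log2 deviation of the marker sum with the mean deviation of the enzymes was 0.893 over 15 libraries, 0.789 without the 2 farthest and 0.7996 without treated B6 mice. It was 0.747 (Pcna) to 0.890 (Top2a) for the single markers.

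Other cell types were followed in the same way. The r with the enzymes was 0.735 for 4 goblet cell markers, -0.657 for 5 markers of mature colonocytes, -0.181 for 6 general epithelial markers, -0.455 for 6 smooth muscle markers, 0.443 for 5 fibroblast markers and 0.403 for 5 of 6 leukocyte markers (Cd3e was not in all tables). For enteric neurons and glia, 2 of 5 markers were measured (r = -0.597), and for adipocytes 1 of 5 (r = -0.151), Adipoq and Plin1 being among those not in all tables. Goblet cell markers summed to 6056 to 10202 CPM in control set 1 and 11821 to 15312 in control set 2. In treated B6 mice they summed to 16294 to 22539 CPM, in untreated mutants to 13555 to 14206 and in treated mutants to 13787 to 19101. Colonocyte markers summed to 2642 to 3364 CPM in control set 1 and 1791.5 to 2815 in control set 2. Those of treated B6 mice, at 1984 to 2618 CPM, lay within the range of control set 2. Untreated mutants were at 2304 to 2748 CPM for the colonocyte markers and treated mutants at 1622 to 2388. No marker measured was at 0 in any library, and the epithelial markers that define the tissue were between 7238 and 9273 CPM in sum. The part of any of these cell types in the covariation of the enzymes was not tested, and in whole colon fewer cells of a type and less RNA per cell cannot be told apart.

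**Figure D3:**
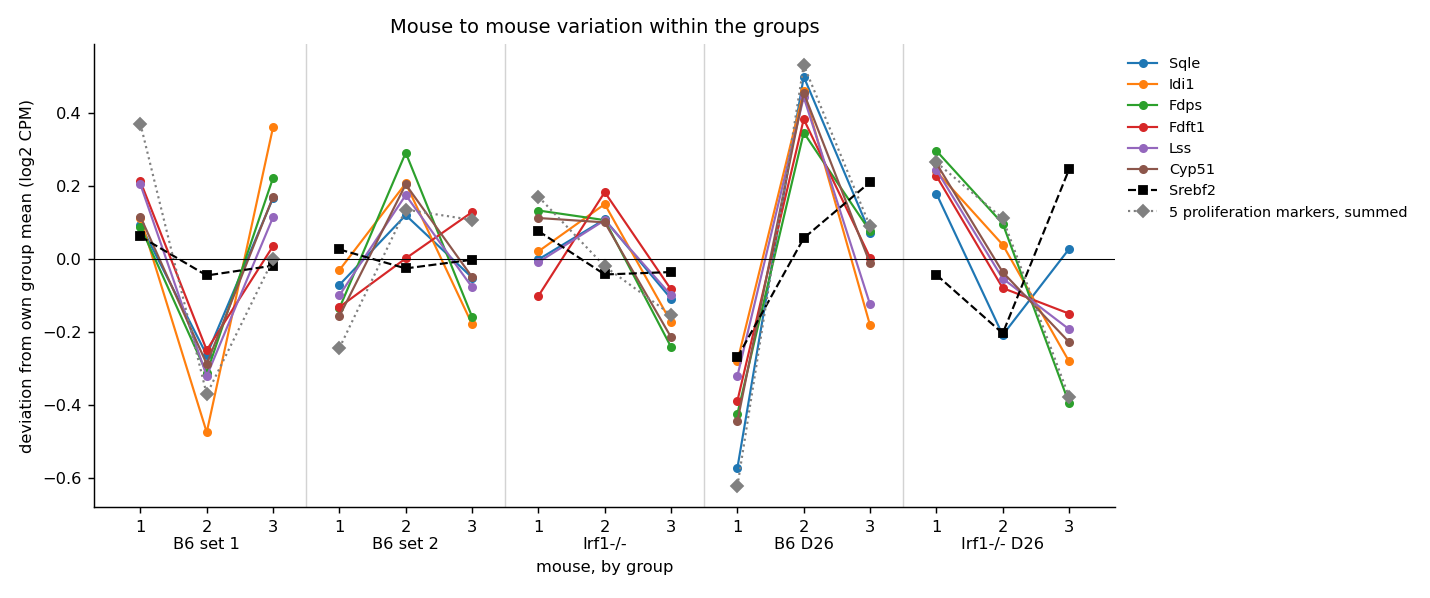
Deviation of each mouse from the mean of its own group (y axis, log2 CPM) for the 6 enzymes (circles), Srebf2 (black squares) and the summed 5 proliferation markers (grey diamonds), with mice 1 to 3 of each group along the x axis. The enzymes run nearly in parallel, from -0.41 on average in treated B6 mouse 1 to 0.43 in treated B6 mouse 2, with Srebf2 departing from them.

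The rest of the pathway was taken from lists of 14 further enzymes, 8 genes of sterol sensing, 16 of uptake, transport and efflux (14 in all tables) and 16 of fatty acid and NADPH supply. None of these genes was called in any comparison. Of the 14 further enzymes, 7 had an r of at least 0.7 with the mean deviation of the 6 enzymes (median 0.72), where 4.77% of the other 12364 genes did. Sc4mol, the sterol C4-methyl oxidase of the steps after Cyp51, was closest at 0.94, followed by Tm7sf2 (a sterol C14 reductase) at 0.89, Sc5d at 0.87, Nsdhl at 0.86 and Acat2, which makes the acetoacetyl-CoA at the head of the chain, at 0.84. Mvd, which makes isopentenyl diphosphate, was at 0.79 and mevalonate kinase (Mvk) at 0.74. Ebp (0.10), Dhcr7 (0.17) and Ggps1 (-0.23), which feeds protein prenylation rather than sterols, were the 3 lowest. Without treated B6 mice 1 and 2, Mvd was at 0.58, and the other enzymes that had reached 0.7 were at 0.70 (Sc5d) to 0.88 (Sc4mol).

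Genes outside the chain followed less, with a median r of 0.02 in the transport list, -0.10 in the sensing list and 0.40 in the fatty acid list. None of the 14 transport genes reached 0.7, close to the 4.77% of the other 12364 genes that did, and their highest was Lipa, a lysosomal lipase, at 0.33. Of the 8 sensing genes 1 did, Srebf1 (0.80), while Insig1 was at 0.51 and Scap at -0.04. In the fatty acid list, 2 of 16 did, Scd2 (0.84) and Elovl5 (0.77), and Acss2, which makes acetyl-CoA from acetate, was strongly opposite at -0.83. Lrp1 of the transport list (-0.72) and Fads2 of the fatty acid list (-0.71) were also at -0.7 or below, as were 3.96% of 12364 genes. Several of these values rested on treated B6 mice 1 and 2. Without those mice Srebf1 was at 0.698, Scd2 at 0.68, Elovl5 at 0.53, Acss2 at -0.69 and Fads2 at -0.50. Lrp1 was then at -0.84, and Me1 of the fatty acid list, at 0.46 over all libraries, was at 0.91. The efflux transporters Abca1 (0.14) and Abcg1 (0.12) were near 0.

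**Figure D4:**
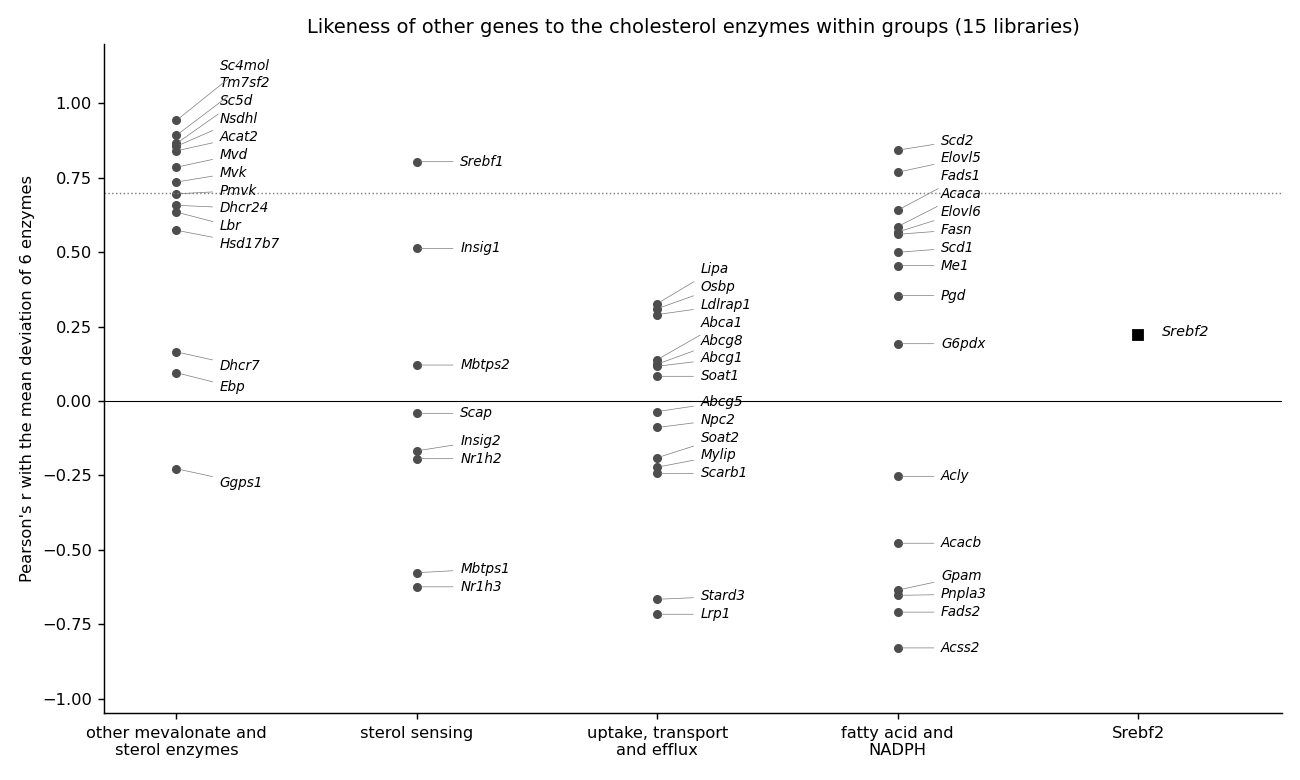
Pearson's r of each listed gene's within-group deviation with the mean deviation of the 6 enzymes over 15 libraries (y axis), by list (x axis), with a dotted line at 0.7. Of the 14 further enzymes, 7 lie above the line, against 1 sensing, 0 transport and 2 fatty acid genes, and Srebf2 is at 0.22.

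Between groups, the genes of these lists that passed the looser threshold (adjusted p under 0.05) were few. In the B6 response they were 5 of the 52 listed genes in all tables, in a comparison where 8.46% of all genes passed. They were Abcg1, which exports cholesterol to HDL (log2 fold change 1.201 ± 0.215, adjusted p = 0.0211), and Acacb, an acetyl-CoA carboxylase of the mitochondrial surface (0.54 ± 0.119, 0.0330). The others were Pmvk, phosphomevalonate kinase (0.45 ± 0.114, 0.0441), Stard3, a late endosomal sterol carrier (0.32 ± 0.084, 0.0480), and Mbtps2, the site-2 protease (-0.46 ± 0.111, 0.0397). In the Irf1-/- response they were 3 of the 52, in a comparison where 2.37% of all genes passed. These were Lipa, the lysosomal lipase that frees cholesterol from its esters (0.40 ± 0.065, 0.0265), Soat2, which esterifies cholesterol (-0.53 ± 0.096, 0.0322), and Abcg1 (0.64 ± 0.126, 0.0402). The difference between the responses was not called for any of them, with adjusted p from 0.107 for Mbtps2 (0.50 ± 0.131) upward, so they are not shown to differ by genotype. All 5 genes of the B6 response lost the looser threshold when any 1 of the 3 controls was left out (adjusted p of 0.0554 for Abcg1 to 0.153 for Stard3), and all 5 lost it after the GC correction (0.0589 for Abcg1 to 0.451 for Mbtps2, then at -0.17). All 3 genes of the Irf1-/- response lost it when any 1 of the 3 untreated mutants was left out (0.0993 to 0.151, both for Soat2).

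Abcg1 was at 14.7, 15.7 and 13.5 CPM in control set 1, 16.2, 19.3 and 12.1 in control set 2, and 12.04, 13.3 and 10.02 in untreated mutants. It was at 41.0, 38.1 and 21.5 in treated B6 mice and 19.2, 18.9 and 17.0 in treated mutants. In each genotype the treated mice did not overlap with their own controls, nor did the treated genotypes overlap with each other (log2 fold change -0.88 ± 0.212, adjusted p = 0.0690). Of all genes, 34.5% did not overlap in the B6 response, 25.1% in the Irf1-/- response and 28.1% between treated genotypes. The treated mutants lay within the range of control set 2. DESeq2 and edgeR's exact test called Abcg1 in all 3 of these comparisons, and without treated B6 mouse 3 the treated genotypes differed by -1.11 with an adjusted p of 0.00939. Of 16 alternative settings between treated genotypes, only 4 gave an adjusted p under 0.05, with log2 fold changes from -1.11 to -0.71. After the GC correction Abcg1 was at -0.79 between treated genotypes (adjusted p = 0.191 in edgeR's quasi-likelihood test). In the Irf1-/- response it also lost the looser threshold without treated mutant 1 (adjusted p = 0.0600) or 2 (0.0861), and with all 15 libraries in 1 fit (0.126).

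No listed gene passed the looser threshold between untreated genotypes, between treated genotypes or between the control sets. Between untreated genotypes the 2 smallest adjusted p were those of Fads2, a fatty acid desaturase (-0.29 ± 0.061, 0.0529), and Insig1 (0.43 ± 0.099, 0.0891). Between treated genotypes they were those of Abcg1 (above) and Nr1h2, the sterol receptor LXR beta (-0.38 ± 0.093, 0.0718). Between the control sets they were those of Pnpla3, a lipid droplet protein (0.56 ± 0.108, 0.0556), and Gpam, which starts glycerolipid synthesis (-0.35 ± 0.072, 0.0596). Soat2 was at 0.45 ± 0.097 (adjusted p = 0.0668) between the control sets, beside -0.53 in the Irf1-/- response.

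Last, all genes were ranked by how closely their level followed the mean standardised log2 CPM of the 7 members over the 15 libraries, group differences included. Among the members themselves, r with this mean was 0.44 for Srebf2 and 0.70 for Idi1, against 0.82 (Fdft1) to 0.95 (Sqle) for the rest. Of 12363 other genes, 0.291% had an r of at least 0.8. Sc4mol ranked first (r = 0.93) and Acat2 31st. Of the genes reported here, the 10 nearest outside the lists were Kdelr3 (0.91), Tspan13 (0.90), Tpd52 (0.88), Zfp275 (0.87), Dnajc10 (0.86), Nipal2 (0.86), Rhbdl3 (0.85), Nudcd1 (0.85), Mthfd2 (0.85) and Epb4.1l2 (0.85). With the 2 libraries farthest from the median of that mean left out, here mouse 2 of control set 1 and treated B6 mouse 1, their r lay between 0.67 (Zfp275) and 0.86 (Kdelr3).

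Kdelr3, a receptor that returns proteins to the endoplasmic reticulum, was at 12.3, 8.68 and 11.8 CPM in control set 1, 12.3, 16.3 and 13.7 in control set 2, and 14.2, 15.6 and 15.6 in untreated mutants. Treated B6 mice were at 10.7, 22.8 and 18.9 and treated mutants at 22.5, 15.4 and 16.3. The highest and the lowest treated B6 mouse, the highest treated mutant and the lowest mouse of control set 1 were those of Cyp51 too, whereas the lowest treated mutant was not.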

How the data were processed

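Whole distal colon of 15 mice was sequenced from stranded, rRNA-depleted libraries as 50 bp pairs. The submitters' processing notes name TopHat2 2.0.9, Bowtie 1.0.0, featureCounts, edgeR and the build mm9, with no roles given. The authors deposited unnormalized read counts per gene in 3 tables, keeping genes with at least 5 CPM in 3 or more libraries. The authors also deposited CPM, log2 CPM, and log2 fold changes, dispersions, calls and p-values of their own comparisons, which were not used. The untreated Irf1-/- counts are in 2 tables with 0 differing values.

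Counts were scaled with TMM and tested with edgeR 4.0.16 (quasi-likelihood, R 4.3.3), p-values being adjusted over all genes tested. The comparisons of treated genotypes, of the control sets and of the responses joined libraries of different tables over the genes they share. The others were run within a table. Levels and deviations used all 15 libraries (log2 CPM with a prior count of 2). Alternatives were RLE factors, DESeq2 1.42.0, edgeR's exact test, limma 3.58.1 voom, a 10 CPM filter, all libraries in 1 fit, an adjusted p under 0.05, a replicate block, a lowess GC correction (span 0.3), each mouse left out and the other control set. Leaving out the farthest or the treated B6 libraries was added after seeing the data. Scripts were tested on simulated data. Near copies were matches of at least 200 bases at 95% identity between GENCODE M21 transcripts.

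The members and lists were chosen with earlier results of these data known. From each list the called genes were named, or otherwise genes with the smallest p, and the 10 genes most like the members. List genes named for their correlation were chosen after their values were seen. A few genes of the lists and of that ranking are not reported here. Replicates are labelled as separate samples.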

Additional observations from a re-analysis of the deposited data

How the results depend on the processing

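No member was called in any of the 104 alternative fits, and the median correlation between the enzymes stayed between 0.785 and 0.881. In each of the 6 comparisons, 1 of these fits was the main fit read at the looser threshold. Its fold changes repeat the main ones. Of 728 alternative fold changes of members, these repeats included, 9 had an adjusted p under 0.05 (lowest 0.0213). The sign turned in 53, all of values that passed no threshold, and the cause was not tested. Beyond these 53, it turned in 2 values of genes that are no members, Lipa and Pnpla3, which are given below with the rest. The numbers do not pair the mice (r of same-numbered deviations -0.22 to 0.25), and the replicate block called no member. With control set 1 in place of set 2, the log2 value that turned was -0.022 for Lipa between untreated genotypes. With the GC correction and the replicate block, the log2 values that turned were -0.0047 for Srebf2 in the B6 response, 0.019 for Idi1 in the Irf1-/- response, -0.020 for Srebf2 in the Irf1-/- response, 0.036 for Fdps between treated genotypes and 0.068 for Srebf2 between treated genotypes. With control set 2 in place of set 1, the log2 values that turned were -0.17 for Cyp51 in the B6 response, 0.0081 for Sqle for the difference between the responses, 0.23 for Cyp51 for the difference between the responses and 0.10 for Pnpla3 for the difference between the responses. With both control sets, the log2 value that turned was -0.059 for Cyp51 in the B6 response. After the GC correction, the log2 values that turned were 0.026 for Idi1 in the Irf1-/- response, -0.013 for Srebf2 in the Irf1-/- response, 0.035 for Fdps between treated genotypes and 0.065 for Srebf2 between treated genotypes. With limma voom, the log2 value that turned was 0.019 for Cyp51 for the difference between the responses. With the replicate block, the log2 value that turned was 0.0059 for Cyp51 for the difference between the responses. With all 15 libraries in 1 fit, the log2 value that turned was 7.6e-05 for Fdps between treated genotypes. Between untreated genotypes, omitting 1 mouse at a time gave -0.024 to 0.033 for Srebf2. In the B6 response, omitting 1 mouse at a time gave -0.19 to 0.26 for Cyp51 and -0.093 to 0.42 for Sqle. In the Irf1-/- response, omitting 1 mouse at a time gave -0.14 to 0.12 for Idi1, -0.051 to 0.28 for Fdps, -0.092 to 0.16 for Cyp51, -0.020 to 0.17 for Sqle and -0.10 to 0.12 for Srebf2. For the difference between the responses, omitting 1 mouse at a time gave -0.34 to 0.18 for Sqle, -0.28 to 0.10 for Fdft1, -0.29 to 0.11 for Lss and -0.20 to 0.25 for Cyp51. Between treated genotypes, omitting 1 mouse at a time gave -0.13 to 0.39 for Sqle, -0.13 to 0.25 for Fdft1, -0.19 to 0.18 for Fdps and -0.22 to 0.028 for Srebf2. Between the control sets, omitting 1 mouse at a time gave -0.19 to 0.038 for Fdft1, -0.010 to 0.20 for Sqle, -0.051 to 0.35 for Idi1 and -0.025 to 0.23 for Lss. The exact test could not be run for the difference between the responses. A filter below 5 CPM could not be tried, since the tables start there.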
